A study of Macaca mulatta with 16 samples.

Results

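Regions of open chromatin that every T cell library shared, but that ranked higher in naive than in memory cells, are described here. They were found by merging all peaks that shared at least 1 bp, which gave 55449 regions, and keeping those with a peak in all 16 peak lists (24333) and a merged width over 1200 and under 6000 bp (18930). A region's strength in a library is the percentile of the area score of its highest-ranked peak among all peaks of that library's list, so 100 marks the strongest peak of a list. A region was a member when its lowest strength in the 8 naive libraries lay above its highest strength in the 8 memory libraries. This held for 587 of the 18930 eligible regions, or 3.1%, and the opposite order held for 945 (4.99%). Members were thus chosen by their strengths in naive and memory libraries, and differences between the states are a description that carries no test.

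The libraries came from sorted peripheral blood T cells of 2 rhesus macaques (Macaca mulatta), each sampled after and before treatment with 2-hydroxypropyl-beta-cyclodextrin (Kleptose HBP), a ring of sugars that takes up cholesterol. Its 15% (w/w) solution was injected under the skin for up to 120 days, at 1 ml/kg/day, and samples taken before it are labelled with no treatment. ATAC-seq, in which a transposase inserts adapters into accessible DNA, was run on 10000 cells of each population. The 8 groups were CD8+ naive, CD4+ naive, CD8+ memory and CD4+ memory T cells, after and before treatment, with 1 library per animal in each group. There were no untreated animals, so treatment and time cannot be told apart. Genes at the regions and their sequences were not analysed here, because no genome or annotation of rheMac10 was used, and the labelled cell types were not checked against marker genes for the same reason.

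Naive T cells circulate through lymph nodes before any encounter with antigen, while memory T cells are the long-lived progeny of cells activated by it. Both share the open chromatin of the T cell lineage, at promoters and at enhancers that keep T cell identity, while differentiation also adds and removes accessible sites. An ATAC-seq area score sums the height of a peak over its width, and a region can therefore be present in every library and still differ in rank.

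Among the 587 members the mean strength of the naive libraries exceeded that of the memory libraries by a median of 10.4 percentile points (quartiles 3.98 and 19.7, highest 55.8). Over all 18930 eligible regions the median of the same difference was 0.19 points. Member medians ran from 75.5 to 80.4 in the 8 naive libraries, against 62.2 to 69.2 in the 8 memory libraries. Every naive library lay 3.93 to 6.78 points above the median of the eligible regions in its own list, and every memory library 4.92 to 10.6 points below it.

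**Figure D1:**
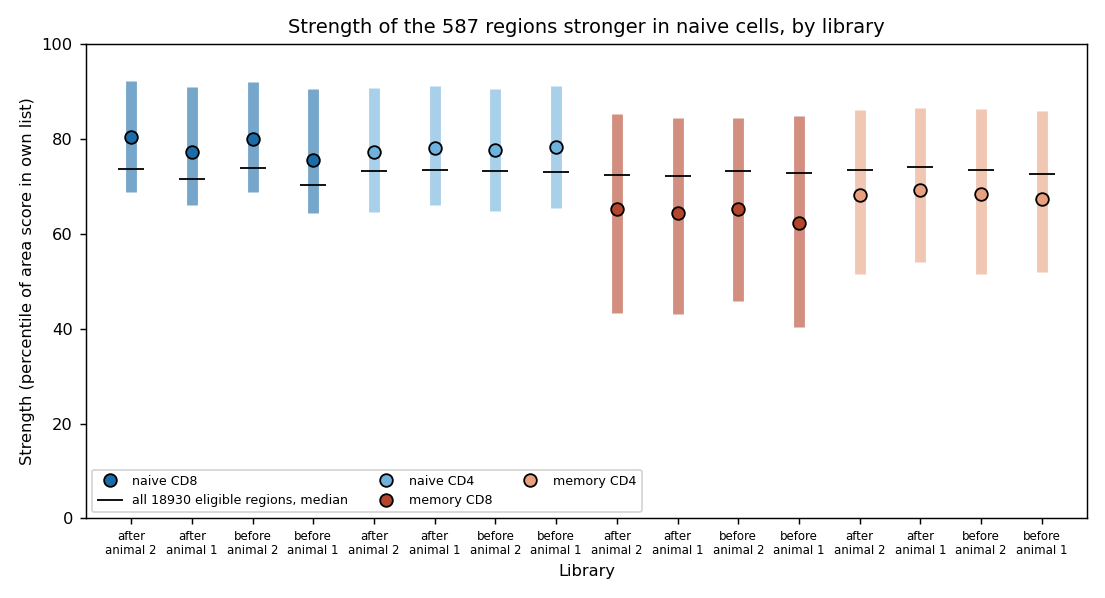
Strength of the 587 members in each library, as percentile of the area score in its own list (vertical axis, 0 to 100). Circles are medians, thick bars run between the quartiles and black dashes are medians of all 18930 eligible regions. The 8 naive medians, at 75.5 to 80.4, lie above the dashes, and the 8 memory medians, at 62.2 to 69.2, lie below them.

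The lowest member medians within each state were in animal 1. In naive CD8+ cells they were 80.4 in animal 2 and 77.1 in animal 1 after treatment, and 80.0 in animal 2 and 75.5 in animal 1 before. The 2 naive CD8+ lists of animal 1 were also the shortest, with 37966 peaks after and 36307 before treatment, where all lists held 36307 to 42034. These 2 libraries held the lowest naive strength in 271 of the 587 members. Without them 1066 regions satisfied the rule, which fewer libraries can only loosen. The highest memory strength was in a CD4+ library for 416 members and in a CD8+ library for 171.

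Members were found at every level of strength above the lowest. The mean over the 16 libraries lay between the 25th and 50th percentile in 78 members, between 50 and 75 in 249 and between 75 and 90 in 138, and it lay above 90 in the remaining 20.8%. These are 2.67%, 3.39%, 2.45% and 4.13% of the eligible regions in the same classes. The distance between the states narrowed as strength rose. The median difference between naive and memory means was 25.7 points in the class from 25 to 50 and 1.87 points above 90, where percentiles have little room left. Member regions had a median width of 2454 bp, against 2421 bp for all eligible regions, and 79.2% of them held exactly 1 peak in each of the 16 lists, against 75.04%.

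The member with the widest gap between states lay on chromosome 10 at 22476556 to 22480076 (rheMac10, as are all positions). In naive CD8+ libraries its strength was 86.5 and 83.0 after treatment in animal 2 and animal 1, and 90.4 and 75.8 before. In naive CD4+ libraries it was 69.7 and 84.9 after and 72.2 and 84.2 before, in the same order of animals. Memory CD8+ libraries had 15.9 and 26.8 after and 33.6 and 29.3 before. Memory CD4+ libraries had 16.2 and 37.3 after and 9.005 and 32.4 before. All naive values were thus at least 32.4 points above all memory values, and within CD4+ cells animal 1 was the higher animal in both states. The next always open region was 114.5 kb away.

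The second widest gap, 22.9 points, was on chromosome 12 at 119965420 to 119966994, with naive strengths of 58.7 to 66.4 (median 63.4) and memory strengths of 5.90 to 35.8 (median 21.5). Chromosome 2 held the third and the fourth. At 144143085 to 144144475 naive libraries had 49.3 to 61.9 (median 57.4) and memory libraries 2.29 to 27.5 (median 18.9). At 127390560 to 127393368 naive libraries had 50.6 to 78.1 (median 64.3) and memory libraries 6.51 to 29.4 (median 20.2). These 3 regions were of middle rank in naive cells and among the weak peaks of the memory lists.

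The fifth widest gap was on chromosome 13 at 44090722 to 44092468. Its 8 naive strengths lay between 70.5 and 75.3, while the 8 memory strengths spread from 8.90 to 50.4. Chromosome 16 at 40136462 to 40137912 had 52.4 to 62.7 in naive and 13.9 to 33.3 in memory libraries. Chromosome 14 at 70541580 to 70544244 had 75.2 to 85.5 in naive and 26.8 to 57.2 in memory libraries. The tenth, on chromosome 19 at 4210084 to 4213876, was strong in naive cells, at 89.99 to 94.7, and had memory values from 7.53 to 73.6 that were split by lineage, as described further on.

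The largest cluster of members lay on chromosome 5 and held the seventh and ninth widest gaps. It consisted of 3 members over 24.1 kb, from 137934441 to 137958526, and the span held no other always open region. The first, at 137934441 to 137936007, had 63.0 to 72.8 in naive and 20.8 to 45.1 in memory libraries. The second, at 137946235 to 137948281, had 65.4 to 77.7 in naive and 26.0 to 46.7 in memory libraries. The third, at 137955575 to 137958526, had 64.4 to 79.1 in naive and 37.8 to 57.1 in memory libraries. Another 76.2 kb further on lay the member with the highest naive strength of all, at 138034760 to 138040661. It had 99.7 to 99.8 in naive libraries, 97.9 to 98.8 in memory CD8+ and 99.3 to 99.4 in memory CD4+ libraries.

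**Figure D2:**
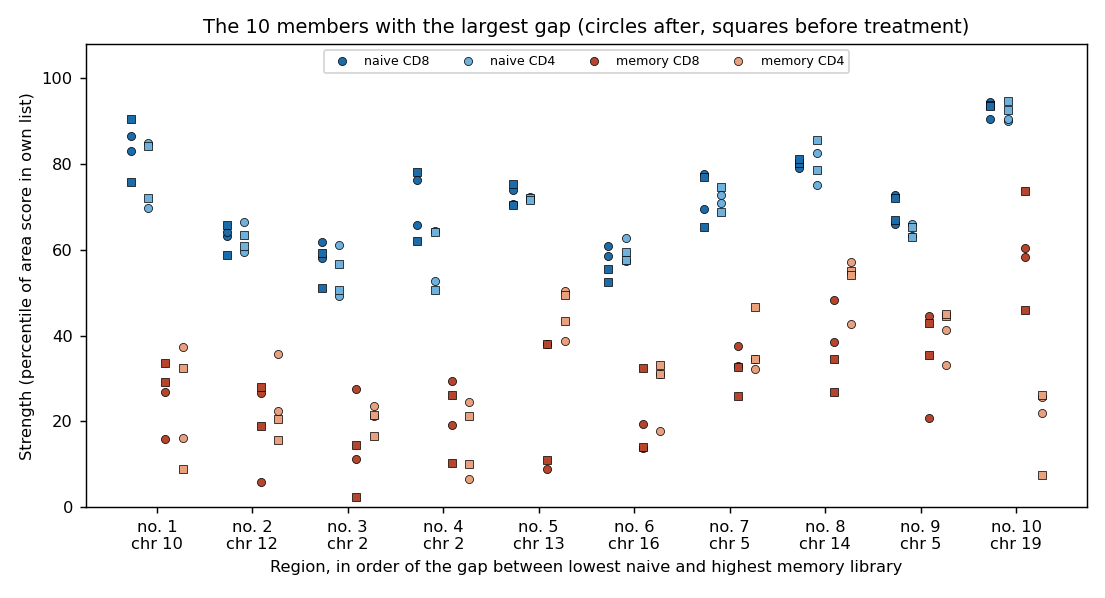
Strength (percentile in its own list) of the 10 members with the widest gap, in each of the 16 libraries, with circles after and squares before treatment and 4 points per population. Gaps fall from 32.4 points in the first to 16.4 points in the tenth, and the tenth is the one whose memory CD8+ points all lie above its memory CD4+ points.

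The other 4 of the 5 members that were strongest in naive cells were separated by under 0.1 points. On chromosome 4 at 143831048 to 143836930, naive libraries had 99.6 to 99.7 and memory libraries 99.2 to 99.5. Chromosome 1 at 101279793 to 101284686 had 99.5 to 99.7 in naive and 99.1 to 99.5 in memory libraries. Those on chromosome 6 at 178724535 to 178730080 and chromosome 19 at 48626551 to 48632000 were alike in this. At the border of the rule, the members with the smallest gaps had 0.0018 points (chromosome 7 at 17369102 to 17371698), 0.0024 points (chromosome 1 at 90996745 to 90998192) and 0.0038 points (chromosome 8 at 66755683 to 66760045). The nearest regions outside it had gaps of -0.0037 (chromosome 11 at 118122196 to 118124625), -0.0064 (chromosome 3 at 9536752 to 9540510) and -0.0079 points (chromosome 16 at 7988862 to 7994631), so the border runs through a continuum.

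Width and mean height of a peak both went with the rank. Mean height was the area score divided by the width, so together they make up the score that chose the members. The strongest peak of a member ranked higher in naive cells by a median of 8.83 percentile points for its width and of 9.60 points for its mean height, each against -0.05 to 0.17 points over all eligible regions. The mean rank was higher in naive cells for width in 579 members, for height in 521 and for the −log10 p at the summit in 564. Fewer members kept all 8 naive libraries above all 8 memory libraries on these measures, 26.6% by width, 19.3% by height and 35.1% by summit −log10 p, where 1.32%, 0.75% and 1.62% of eligible regions did. Peaks covered a median of 84.5% of the merged region in naive and 71.0% in memory libraries, while over the eligible regions it was 76.2% and 79.9%. The summits stayed close, with a median of 8 bp between the median naive and median memory summit, against 5 bp over all eligible regions. All of these are measures of the comparison that chose the members and are given without a test.

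Regions chosen in the libraries of 1 animal were read in the other animal, whose libraries that choice had not used. The rule for members used both animals. Of 2603 regions whose 4 naive libraries exceeded the 4 memory libraries in animal 2, 977 (37.5%) did so in animal 1, where 7.77% of all eligible regions did. Of 1471 chosen in animal 1, the same 977 (66.4%) did so in animal 2, where 13.8% of all eligible regions did. The opposite order, all memory above all naive libraries, was seen in 0 of the 2603 and 1 of the 1471. The animals' naive means were higher than their memory means in 95.7% of the regions read in animal 1 and in 99.2% of those read in animal 2, against 47.7% and 58.5% of all eligible regions. Between lineages, 1199 regions were separated in both, which is 43.4% of the 2765 chosen in CD8+ cells (11% of eligible regions were separated in CD4+ cells) and 57.4% of the 2089 chosen in CD4+ cells (14.6% in CD8+ cells). Between the times, 839 regions were separated at both, which is 40.1% of the 2091 chosen after (6.96% of eligible regions were separated before) and 63.7% of the 1317 chosen before treatment (11% after). The 977, the 1199 and the 839 all include the 587 members, which the rule makes separated in every such part. These shares therefore describe regions chosen in 1 part of the libraries and are no test of the members. The splits by lineage and by time also read the same 2 animals on both sides.

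The difference between CD8+ and CD4+ cells asked whether members took the same rank in both lineages. It was tested with limma on the strengths of all 18930 eligible regions, with Benjamini-Hochberg adjustment over all of them and a threshold of 0.05. In memory cells 183 of the 587 members differed, or 31.2%, where 18.3% of all eligible regions did. Of these 166 were lower in memory CD8+ than in memory CD4+ cells (28.3%, against 12% of eligible regions) and 17 were higher (2.90%, against 6.3%). In naive cells 12 members differed, or 2.04%, where 7.83% of eligible regions did, with 9 higher (2.98% of eligible regions were) and 3 lower in naive CD8+ cells (4.85% of eligible regions). The regions stronger in memory cells had the larger share in naive cells, with 16.9% of 945 in naive and 13.1% in memory cells. The fit took a single spread per region for all 8 groups, so naive and memory differences of a region had the same standard error. Where the spread differs between the states, this can raise the calls in the more variable state and lower them in the other. Membership also bounds the spread within a state, because no naive library may fall under any memory library. The parts of the shared spread and of this bound in the shares were not tested. Since each side rests on repeated samples of the same 2 animals, the p-values speak for the variation among these libraries and not among macaques.

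Averaged over both states, 141 members (24.0%) differed between the lineages, near the 24.6% of all eligible regions, with 5.11% higher and 18.9% lower in CD8+ cells (8.17% and 16.4% of eligible regions). On chromosome 1 at 215568801 to 215573617, memory CD8+ libraries had 0.73 and 6.65 after treatment in animal 2 and animal 1, and 10.4 and 11.7 before. Memory CD4+ libraries had 42.1 and 68.9 after and 61.0 and 67.6 before, so that every memory CD8+ value lay below every memory CD4+ value. Naive libraries had means of 77.6 ± 2.84 in CD8+ and 82.9 ± 6.77 in CD4+ cells (SD, n = 4 each). The CD8+ minus CD4+ difference in memory cells was -52.5 ± 4.77 points (SE, limma, Benjamini-Hochberg adjusted p = 6.2e-05).

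Chromosome 12 at 11426479 to 11428645 had the smallest adjusted p of the members in this comparison. Memory CD8+ strengths were 33.3 and 31.6 after and 20.04 and 10.9 before, against 64.3, 64.7, 64.8 and 62.0 in memory CD4+ libraries in the same order. The difference in memory cells was -40.0 ± 2.05 points (SE, limma adjusted p = 2.8e-06). In naive cells it was -7.86 ± 2.05 points (SE, limma adjusted p = 0.041), with means of 67.6 in CD8+ and 75.4 in CD4+ cells. Chromosome 10 at 20235041 to 20239696 had memory means of 24.1 in CD8+ and 66.9 in CD4+ cells (difference -42.8 ± 7.51 points, SE, limma adjusted p = 0.0028).

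The 17 members with the opposite order included the tenth widest gap. On chromosome 19 at 4210084 to 4213876, memory CD8+ libraries had 60.5 and 58.2 after and 73.6 and 46.0 before, against 22.0 and 25.7 after and 26.1 and 7.53 before in memory CD4+ libraries. Its difference in memory cells was 39.2 ± 5.25 points (SE, limma adjusted p = 5.8e-04), while naive means were 93.1 in CD8+ and 92.0 in CD4+ cells. Chromosome 4 at 54715378 to 54717605 had memory means of 40.2 in CD8+ and 9.04 in CD4+ cells, and naive means of 71.7 and 58.3. Chromosome 1 at 181160756 to 181162426 had 35.8 in memory CD8+ and 7.94 in memory CD4+ cells, and 57.8 and 52.2 in naive cells. In these 3 regions memory CD4+ cells held the lowest values.

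Among the 12 members called in naive cells, the largest was on chromosome 10 at 32382058 to 32386940. Naive CD8+ libraries had 90.9 to 94.8 and naive CD4+ libraries 76.1 to 84.9, a difference of 14.3 ± 3.60 points (SE, limma adjusted p = 0.035). Chromosome 1 at 216147934 to 216149630 had naive means of 66.0 in CD8+ and 54.9 in CD4+ cells, and chromosome 19 at 34677051 to 34679868 had 92.7 and 82.3. Lower in naive CD8+ cells were chromosome 2 at 10806039 to 10811776, with 78.1 and 85.1, and chromosome 1 at 13096076 to 13101296, with 84.9 and 90.7. The count of 12 depended on single libraries. It was 1 to 7 without any 1 of the 8 naive libraries (4.82% to 10.8% of eligible regions), 7 without either memory CD4+ library taken after treatment (6.90%), and 21 with the animal as a block (12.5%).

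The naive to memory difference was itself compared between lineages, with the limit that the rule makes it positive in both for every member. It was larger in CD8+ cells in 488 of 587 members (83.1%), with medians of 11.9 points in CD8+ and 8.22 points in CD4+ cells. Of the 7676 eligible regions whose difference was positive in both lineages, 70.6% had the larger one in CD8+ cells. The test of this difference called 32 members (5.45%, against 1.76% of eligible regions), 31 with the larger difference in CD8+ cells (1.04% of eligible regions were called that way) and 1 with the larger difference in CD4+ cells (0.724% of eligible regions). The regions stronger in memory cells had the same lean, with 5.19% of 945 called, all of them with the larger memory to naive difference in CD8+ cells, and 76.5% larger in CD8+ cells whether called or not. With the animal as a block 74 members (12.6%) and 3.71% of eligible regions were called. Without any 1 of the 8 CD4+ libraries the count was 8 to 17 (1.36% to 2.90%, against 0.62% to 0.85% of eligible regions). Without 1 of the naive CD8+ libraries of animal 2 it was 11 (after, against 0.78% of eligible regions) or 18 (before, against 1.52%), and without memory CD8+ before treatment it was 71 (animal 2, against 2.43%) or 49 (animal 1, against 2.86%).

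**Figure D3:**
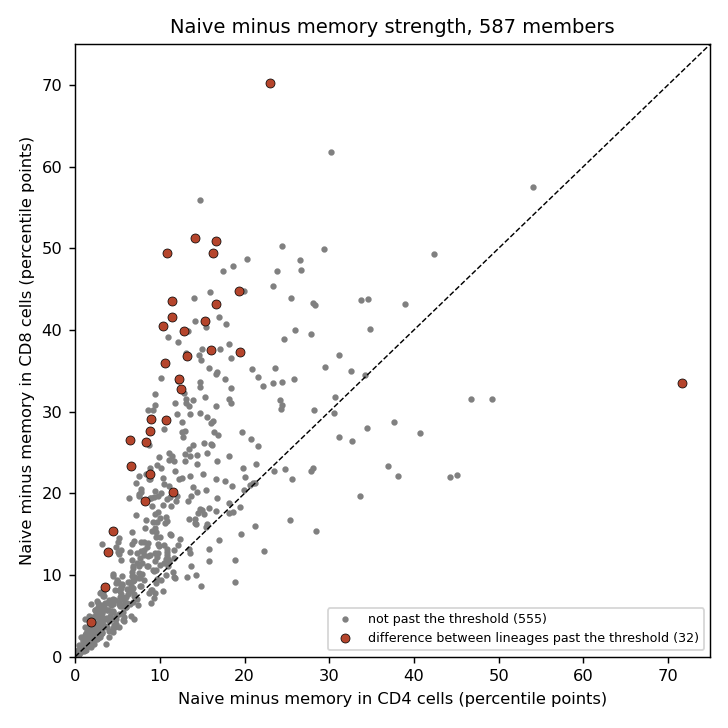
Naive minus memory strength in percentile points in CD4+ (horizontal) and CD8+ cells (vertical), each a difference of means of 4 libraries, for the 587 members. The dashed line marks equal differences, red points are the 32 members called by limma, and 31 of these lie above the line.

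The member with the largest such contrast was the region on chromosome 1 at 215568801 described above, where the naive to memory difference was 70.2 points in CD8+ and 23.0 points in CD4+ cells. Chromosome 9 at 23949327 to 23950732 had naive means of 59.0 in CD8+ and 59.8 in CD4+ cells, and memory means of 9.61 in CD8+ and 49.0 in CD4+ cells. Its contrast was 38.6 ± 3.50 points (SE, limma adjusted p = 5.5e-04). Chromosome 14 at 57424107 to 57426213 had naive means of 70.7 and 72.2 and memory means of 19.4 and 58.0 in CD8+ and CD4+ cells (contrast 37.1 ± 5.76 points, SE, limma adjusted p = 0.012). It is 1 of a pair of neighbouring members in a span of 7.24 kb that starts at 57418971. The other member of the pair, at 57418971 to 57421119, had 70.1 to 78.4 in naive and 12.3 to 60.2 in memory libraries. Chromosome 19 at 4210084, with 33.5 points in CD8+ and 71.6 points in CD4+ cells, was the member called the other way (contrast -38.1 ± 7.42 points, SE, limma adjusted p = 0.032).

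**Figure D4:**
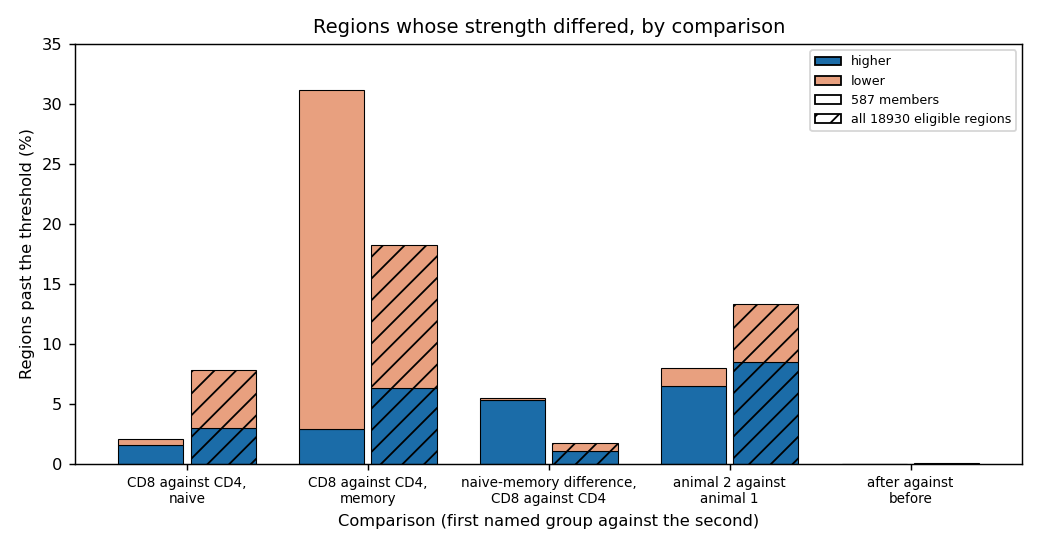
Share of regions past the limma threshold in 5 comparisons, for the 587 members (plain) and all 18930 eligible regions (hatched), with blue for higher and orange for lower in the first named group. In memory cells 31.2% of members against 18.3% of eligible regions differed between CD8+ and CD4+ cells, while no member differed between after and before treatment.

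The comparison of samples after with those before cyclodextrin asked whether the members moved during treatment. No member passed (limma, 0 of 587, against 0.0158% of eligible regions), and 41 had an unadjusted p under 0.05 (6.98%, against 7.80%). Strengths were also simulated with the spread of these libraries, but with no animal difference shared between groups. The shifted regions were drawn from all eligible regions, so the recovered shares are not those of members alone. In these simulated strengths this comparison recovered 19.5% of shifts of 3 points. It recovered 46% of shifts of 6 points and 75.5% of shifts of 10 points, so small shifts could be missed. The first 3 members by p, none of them past the threshold, were all higher after treatment. Chromosome 12 at 11426479 to 11428645 had means of 60.5 after and 54.9 before (limma adjusted p = 0.52). Chromosome 16 at 17578928 to 17581814 had 88.5 and 87.0, and chromosome 15 at 2143429 to 2146156 had 81.7 and 78.4 (limma adjusted p = 0.55 for each). Whether naive and memory cells moved differently between the times was tested in the same fit, and again 0 members passed (against 0.0106% of eligible regions). An unadjusted limma p under 0.05 was seen in 8 members (1.36%, against 1.61% of eligible regions). The first 3 by p in that test, not past the threshold with an adjusted p of 1.00 each, were at 76374966 to 76377994 of chromosome 4, at 15112505 to 15115413 of chromosome 10 and at 86432652 to 86434525 of chromosome 3.

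Most members had a small positive shift after treatment, none past the threshold. The fitted after minus before value was positive in 413 of 587 members (70.4%, against 61.6% of eligible regions), with a median of 0.49 points against 0.31 points over all eligible regions. In the regions stronger in memory cells it was positive in 291 of 945 (30.8%), with a median of -0.75 points. By pair of libraries the member medians were 0.25 and 0.72 points in naive CD8+ cells of animal 2 and animal 1, 0.17 and 0.32 points in naive CD4+, 0.07 and 0.63 points in memory CD8+ and 0.15 and 1.00 points in memory CD4+ cells. The eligible regions of the same pairs had medians of 0.04 and 0.84, 0.24 and 0.50, -0.19 and -0.58, and 0.20 and 1.16 points. List lengths also changed between the times in the same pairs, and their part in these shifts was not tested. In 18 members (3.07%) strength was higher after treatment in 8 of 8 pairs and in 2 (0.34%) lower, against 1.74% and 1.05% of eligible regions.

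The animals differed in 47 members (8.01%, against 13.3% of eligible regions), 38 of them higher (8.5% of eligible regions were) and 9 lower in animal 2 (4.84%), in a comparison that concerns these animals alone. On chromosome 1 at 102566011 to 102569648 the means were 68.5 in animal 2 and 55.0 in animal 1 (limma adjusted p = 0.027), and on chromosome 11 at 64861597 to 64866272 they were 44.2 and 59.6 (limma adjusted p = 0.0047). Other members higher in animal 2 were chromosome 7 at 64503500 to 64504778, with 49.4 and 37.4, and chromosome 10 at 4113734 to 4116036, with 67.5 and 56.2. Others lower in animal 2 were chromosome 2 at 101870957 to 101872239, with 35.4 and 44.8, and chromosome 3 at 11150564 to 11152675, with 60.0 and 66.0. Without both naive CD8+ libraries of animal 1 the count was 23 (3.92%, against 8.66% of eligible regions). Without any 1 of 8 libraries it was 25 to 31 (4.26% to 5.28%, against 9.60% to 10.99% of eligible regions). These libraries were memory CD4+, naive CD4+ and naive CD8+ before treatment and naive CD8+ after treatment, in either animal.

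Regions that were open in part of the libraries were counted around the members, and those of naive cells were near more of them than those of memory cells. Fisher's exact test compared the states at each region that had a peak in 5 to 11 libraries, two-sided and with Benjamini-Hochberg adjustment. Of these 10922 regions, 1315 (12%) were open in more naive and 1615 (14.8%) in more memory libraries. A naive region lay within 50 kb of 152 members (25.9%), against 10.2% of eligible regions. A memory region lay within 50 kb of 24 members (4.09%), against 13.1%. The regions stronger in memory cells had the opposite neighbours, with a naive region near 6.03% and a memory region near 40.6%. Within 10 kb the shares for members were 9.71% naive and 1.02% memory, against 2.70% and 4.1% of eligible regions, and within 200 kb they were 47.5% and 20.8%, against 28.2% and 31.7%. The number of tested regions within 50 kb was alike, with means of 1.26 around members and 1.17 around eligible regions. These neighbours rest on the same libraries and the same states as the choice of members, so the shares are a description.

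**Figure D5:**
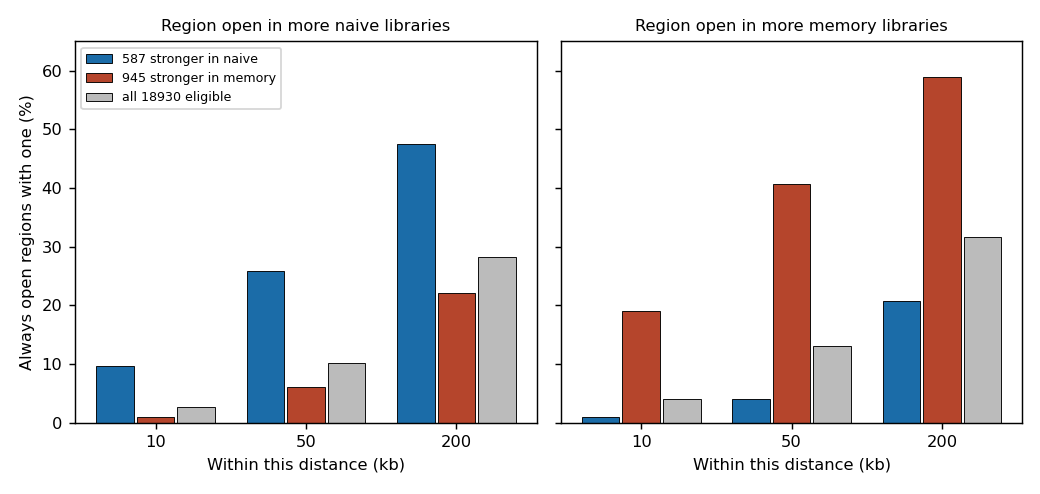
Share of always open regions (percent) with a region called as open in more naive (left) or more memory libraries (right) within 10, 50 and 200 kb. Shares are for the 587 members, the 945 regions stronger in memory cells and all 18930 eligible regions. At 50 kb a naive region lay near 25.9% of members and a memory region near 4.09%.

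Members with a naive region within 50 kb had a median naive to memory difference of 16.02 points, against 8.55 points in the 435 members without one. Their median naive strength was also lower, at 74.1 against 80.0, and its part in the difference was not tested. Both measures belong to the comparison that chose the members. The most such neighbours, 11 and 8, were those of 2 members on chromosome 4 at 83235377 to 83236812 and 83159643 to 83162931. The first had 51.9 to 59.3 in naive and 0.35 to 45.2 in memory libraries, and the second had 83.5 to 93.7 and 63.8 to 75.6. Among the 10 widest gaps, 7 had a naive region within 50 kb and none had a memory region. Around the member on chromosome 2 at 127390560 there were 3, the nearest 6.14 kb away with a peak in 8 of 8 naive and in 0 of 8 memory libraries. The 3 exceptions were those on chromosome 12 at 119965420, chromosome 13 at 44090722 and chromosome 14 at 70541580, whose nearest naive region was 873.1, 462.2 and 61.7 kb away.

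Members also lay near each other. Another member was found within 50 kb of 85 members (14.5%), against 5.4% of eligible regions, and a region stronger in memory cells within 50 kb of 15 (2.56%), against 10.8%. Joined at that distance, the members formed 41 pairs, the group of 3 on chromosome 5 and 502 single regions. The 41 pairs tie in size, and those with the shortest spans were the pair on chromosome 14 given above and a pair on chromosome 13 over 7.51 kb, at 101205338 to 101207236 (58.6 to 69.8 in naive and 17.1 to 54.3 in memory libraries) and at 101210430 to 101212846 (74.2 to 82.1 and 60.1 to 70.3). Members were on all 20 autosomes and X, with shares of the eligible regions from 1.32% on X (7 of 531) to 4.38% on chromosome 5 (27 of 616) and 4.44% on chromosome 4 (52 of 1171).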

How the data were processed

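Peak lists of 16 ATAC-seq libraries were used, 1 per library. The submitters' processing notes name cutadapt 1.18, Bowtie2 2.3.4.1, Genrich 0.6 and the build rheMac10. For settings, duplicate removal and any shift of reads for the transposase, no source used here has a statement. The lists deposited by the authors give each peak's area score, a score of their caller that is never below 200.0, and a −log10 p as deposited by the authors at the summit. For strength both columns were used only as ranks inside the list they came from, so a difference between libraries is one of rank. It is not a measured change in accessibility. For mean height the area score was divided by peak width before ranking, and 1 alternative summed it over a region before ranking. The stricter threshold was a summit −log10 p of at least 3.42 in every list. Read depth was unknown, and lists held 36307 to 42034 peaks.

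Strengths were fitted with limma 3.58.1 (R 4.3.3, mean-variance trend) on 8 group means over all eligible regions. Samples were grouped by title. The titles name 2 animals, while file names number the second differently for each population; the titles were followed. Animal differences correlated between groups (r from 0.30 to 0.57 over 28 pairs of groups), and fits with the animal as a block were alternatives. The fit of the animals carried that term. Replicates of a group were the 2 animals. No lists were alike (highest rank correlation 0.986). Python 3.11.15, numpy 2.4.6, scipy 1.17.1 and pandas 2.3.3 were used, and the fit was tested on simulated data. Alternatives were lists of equal length, other measures of strength, the logit scale, stricter thresholds, other widths and distances, autosomes only, exact permutation tests and each library left out.

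The members, lists and tests were chosen with earlier results of these data known. Named regions are the 10 with the widest gap, 3 on either side of the border, the 5 strongest in naive cells, up to 3 called members per comparison and direction by size (the first 3 by p where none was called) and the 3 largest groups of members at most 50 kb apart (ties by the shortest span). The 2 members on chromosome 4 with most naive neighbours were chosen after their values were seen. Gene lists and markers were not run without an annotation of rheMac10.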

Additional observations from a re-analysis of the deposited data

Results flagged for a closer look

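The size of the naive to memory difference differed between CD8+ and CD4+ cells in 32 members (5.45%, against 1.76% of eligible regions). This was by the test of that difference itself, and 31 of them had the larger difference in CD8+ cells. The regions stronger in memory cells had the same lean, with 5.19% of 945 called, all with the larger difference in CD8+ cells. In the 10 members with the widest gap, and in the member medians, each population's 4 libraries were searched for a value far from the other 3. Of 44 such groups 2 had one, and chance gives about 1 in 20. On chromosome 16 at 40136462 to 40137912, memory CD4+ cells of animal 2 after treatment had 17.7, against 31.0 to 33.3 in the other 3 memory CD4+ libraries. On chromosome 5 at 137946235 to 137948281, memory CD4+ cells of animal 2 before treatment had 46.7, against 32.1 to 34.5 in the other 3.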

How the results depend on the processing

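The number of members, 587 of 18930 eligible regions, was 306 when strength was the rank of the summit −log10 p (206 shared). It was 359 when peaks had to cover at least 50% of the region in every library, where the eligible regions also fell to 13168. In animal 2 and animal 1 alone it was 2603 and 1471. Without both naive CD8+ libraries of animal 1, a choice made after the data were examined, it was 1066. Lists of equal length gave 841 (555 shared), and leaving out 1 library gave 593 to 779. Fewer libraries can only loosen the rule, so every count with libraries left out had to include all 587 members and could not be lower. Shares of eligible regions called in the same setting follow in brackets. Members differing between lineages in naive cells, 12 (7.83%), were 27 with lists of equal length (8.91%) and 22 on the logit scale (7.26%). They were 21 with the animal as a replicate block (12.5%), and 1 to 18 with 1 library left out (4.82% to 10.8%). Members whose naive to memory difference differed between lineages, 32 (1.76%), were 54 (2.63%), 16 (1.03%) and 74 (3.71%) in the same order. They were 17 by summit −log10 p (0.68%), 66 without both naive CD8+ libraries of animal 1 (4.47%), and 8 to 71 with 1 library left out (0.62% to 2.86%). Members differing between animals, 47 (13.3%), were 23 without both naive CD8+ libraries of animal 1 (8.66%) and 25 to 43 with 1 library left out (9.60% to 12.6%). The exact permutation test of 8 against 8 libraries called 0 members between lineages (7 at an unadjusted p under 0.05) and 14.6% of eligible regions, where limma called 141 members. Its labels move across the states, which the rule separates; labels moved within each state, an alternative added later, called 20.95% of members and 25.7% of eligible regions. For after against before the same 8 against 8 test carries the state difference in its spread and is not used for the members. The block of 8 matched pairs and the animal block changed no other count by over 1.5 times. The share of members near a naive region (25.9%) was 9.71% within 10 kb, 47.5% within 200 kb, 10.1% when the naive region had to have a peak in every naive and in no memory library (2.99% of eligible regions), and 26.1% to 29.8% with 1 library left out. By summit −log10 p the mean naive to memory difference on chromosome 10 at 15112505 to 15115413 became -0.42. It moved by over 1.5 times in 11 other named members, to 25.2 (chromosome 19 at 4210084), 21.4 (chromosome 1 at 181160756), 7.45 (chromosome 19 at 34677051), 6.39 (chromosome 2 at 10806039), 3.545 (chromosome 7 at 17369102) and 2.45 (chromosome 4 at 76374966), all smaller than by area score, and to 2.33 to 22.1, all larger, in the 5 members strongest in naive cells (0.22 to 0.93 by area score). The causes were not tested. Depth was unknown, and ranks near 100 leave little room to differ.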
